A study of Arabidopsis thaliana with 12 samples.

Results

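CHLP and CHLM encode enzymes of chlorophyll synthesis, and each was read by 1 probe of an expression array, 2 of 3439 probes in all and 2 of the 691 genes with a probe of their own. CHLP is AT1G74470, which the RefSeq gene table lists as geranylgeranyl reductase, and CHLM is AT4G25080, magnesium protoporphyrin IX methyltransferase. The rule took every probe that the platform annotation gives to a single gene that is CHLP or CHLM, and no probe annotated to several genes names either. Both genes were selected on their measured difference between the groups, since in an earlier look at these same arrays they were the pathway genes that passed. Their values between the groups are therefore given as a description, with no test.

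The arrays held total RNA of wild-type Arabidopsis thaliana, ecotype Columbia 0, in 1 channel. In the water group, 6 samples came from plants kept 8 h in water. In the ascorbate group, the 6 samples came from plants given 4 h of water and afterwards 4 h of ascorbate, supplied as a 25 mM solution of pH 5.5, so that the total of 8 h was the same. Ascorbate is vitamin C, a water-soluble antioxidant of plant cells. The labels name neither the organ nor the age of the plants, state the pH of the ascorbate solution alone and name no plants moved to a fresh solution lacking ascorbate, so ascorbate, pH, solutes and the change of solution cannot be told apart. Samples carry the numbers 1 to 6 in each group. The labels do not call them separate plants, and p-values thus measure only how far these 6 samples of a group scatter, possibly for technical reasons.

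Chlorophyll is built from 2 parts that are made separately in the plastid, a ring and a tail. The ring branch starts from glutamate, passes through protoporphyrin IX and commits to chlorophyll when magnesium is inserted. CHLM then transfers a methyl group from S-adenosylmethionine to magnesium protoporphyrin IX, which prepares the ring for closure of an additional ring by the cyclase. The tail is a phytyl chain. CHLP reduces the geranylgeranyl chain to phytyl, which is used for chlorophyll and for tocopherol, or vitamin E. Plants with little CHLM activity are pale or yellow, and plants with little CHLP hold chlorophyll with the unreduced tail.

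Values are the deposited intensities, on a relative linear scale, or log2 intensities after a floor on low values and quantile normalization, which gives all arrays the same distribution. Summed intensity ranged from 3054 to 3562 per array. Median intensity was 0.252 and 0.259 on ascorbate arrays 1 and 2, below the 0.383 to 0.485 of the other 10 arrays. CHLP and CHLM were above 0 on all 12 arrays. Of the 16 fixed markers of green tissue, 2 had a single-gene probe. PRK, phosphoribulokinase of the Calvin cycle, read 0.43 to 0.76 in water and 0.325 to 0.959 in ascorbate, while SBPASE, sedoheptulose bisphosphatase, was listed at 0 on all arrays. None of the 8 root or 5 senescence markers had a single-gene probe. Probes annotated to several genes were not searched for them, so tissue was not checked further.

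CHLP was brighter on every ascorbate array than on any water array. Deposited CHLP intensity was 1.61, 1.5, 1.23, 1.08, 1.38 and 1.26 in the water group, numbers 1 to 6. The ascorbate group, in the same order, read 2.07, 2.07, 2.17, 1.87, 2.01 and 2.37. The lowest ascorbate value, on array 4, lay above the highest water value, on array 1. The means were 1.34 ± 0.192 in water and 2.09 ± 0.168 in ascorbate (SD, n = 6 each). In RNA from bulk tissue, a change in how many cells hold a transcript and a change in its amount per cell cannot be told apart.

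After normalization CHLP stood at 0.43 ± 0.15 log2 intensity in water and 1.03 ± 0.12 in ascorbate (SD, n = 6 each). The difference was 0.60 ± 0.09 on the log2 scale (SE), or 1.52-fold, and the nearest values of the groups were 0.31 apart. Same-numbered arrays differed by 0.39, 0.50, 0.79, 0.72, 0.39 and 0.84 for numbers 1 to 6, all with ascorbate higher. Numbers 1 and 5 gave the smallest differences and number 6 the largest.

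CHLM went the other way. Its deposited intensity was 0.638, 0.627, 0.459, 0.465, 0.635 and 0.565 in the water group, again numbers 1 to 6. The ascorbate group read 0.191, 0.0767, 0.416, 0.350, 0.217 and 0.277. The groups did not overlap, but ascorbate array 3, at 0.416, lay close to water array 3, at 0.459. The means were 0.565 ± 0.0842 in water and 0.255 ± 0.121 in ascorbate (SD, n = 6 each).

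Normalized CHLM was -1.0 ± 0.13 log2 intensity in water and -1.89 ± 0.56 in ascorbate (SD, n = 6 each). The difference was -0.90 ± 0.23 on the log2 scale (SE), 1.86-fold lower in ascorbate, and the gap between the nearest values was 0.08. Between same-numbered arrays it was -0.76, -1.77, -0.08, -0.35, -1.52 and -0.90 for numbers 1 to 6. The sign was the same at all 6 numbers, while the size ran from 1.05-fold at number 3 to 3.41-fold at number 2. CHLM thus had a wider spread among ascorbate arrays than among water arrays, whereas the CHLP spread was similar in both.

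**Figure D1:**
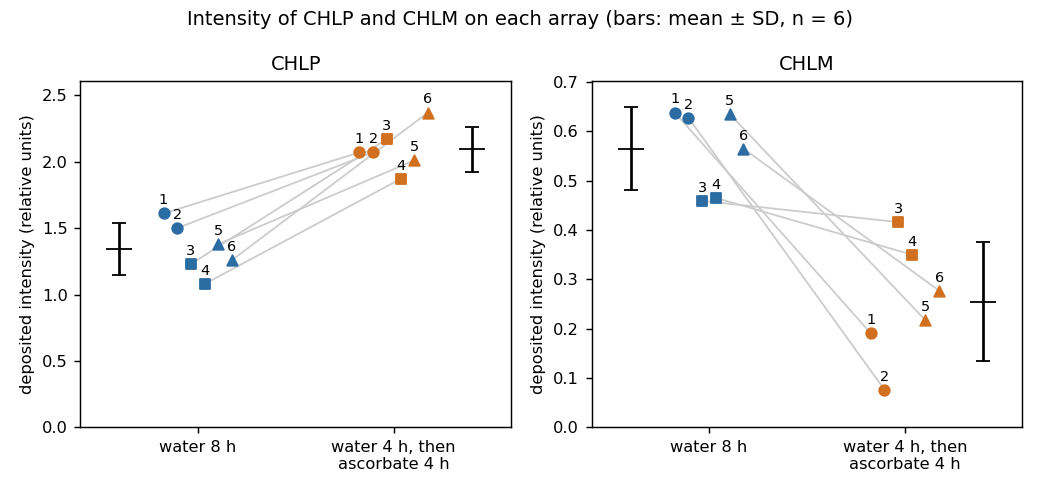
Deposited intensity (relative units, axis from 0) of CHLP, left, and CHLM, right, on each of 12 arrays. Points carry the replicate number, grey lines join the same number, marker shapes show consecutive numbers, and bars give the mean ± SD of 6 arrays. CHLP runs from 1.08 to 1.61 in water and 1.87 to 2.37 in ascorbate, and CHLM from 0.459 to 0.638 and 0.0767 to 0.416.

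Over all 3266 probes tested in the 6 against 6 fit of limma, 17.1% passed an adjusted p of 0.05, with 9.74% higher and 7.38% lower in ascorbate. The groups did not overlap, with ascorbate higher, for 5.57% of probes and, with ascorbate lower, for 4.07%. These shares stand beside CHLP and CHLM as background only, since the contrast chose the genes. By size of change, CHLP ranked 68 from the top and CHLM 43 from the bottom of the 653 tested probes with 1 gene.

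The size of both differences depended on how arrays were put on a common scale, and their direction did not. Under no scaling, median centring, centring on the 75th percentile and cyclic loess, all 6 same-numbered CHLP differences stayed above 0 and all 6 CHLM differences below 0. CHLP differed by 0.65 as deposited, 1.04 after median centring, 0.84 after centring on the 75th percentile and 0.61 after cyclic loess. CHLM differed by -1.32, -0.92, -1.12 and -0.92 under the same settings. The median difference of all probes was -0.35 as deposited and -0.16 after centring on the 75th percentile, against 0.001 after quantile normalization. Relative to that median, CHLP stood at 1.0 and CHLM at -0.97 as deposited. Median centring and centring on the 75th percentile gave the same values, since each shifts an array by 1 constant. The values were 0.60 and -0.90 after quantile normalization and 0.62 and -0.90 after cyclic loess.

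The spread between scalings was widest at numbers 1 and 2, where the ascorbate arrays had the low medians. For CHLP at number 1 the difference was 0.37 as deposited, 0.39 by quantile normalization and 1.27 after median centring. For CHLM at number 2 it was -3.03 as deposited, -1.77 by quantile normalization and -2.16 after median centring. At number 3 CHLM lay between -0.14 and -0.05 under all 5 scalings. Without numbers 1 and 2, the differences over numbers 3 to 6 were 0.63 for CHLP and -0.67 for CHLM on the normalized scale.

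**Figure D2:**
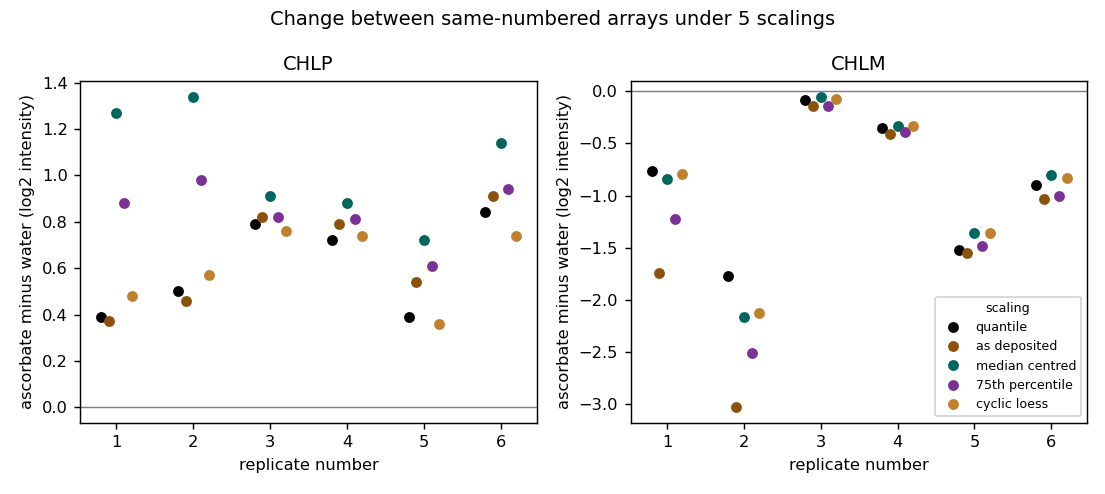
Difference between the ascorbate and the water array of the same number (log2 intensity, vertical axis) for each of 6 numbers (horizontal axis), CHLP left and CHLM right. Each colour is 1 of 5 scalings. All CHLP points lie above 0 and all CHLM points below 0, and the scalings are farthest apart at numbers 1 and 2.

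A ratio of both probes within 1 array does not move when all values of that array are multiplied by 1 factor. Its absolute size has no meaning between different probes, but its change between arrays does. Quantile normalization also alters the shape of an array's values, and so can move the ratio. At number 2, CHLP and CHLM differed by 0.46 and -3.03 log2 units as deposited, but by 0.50 and -1.77 after quantile normalization. The ratios below are of deposited intensities only. In water the deposited intensity of CHLP over that of CHLM was 2.52, 2.39, 2.69, 2.33, 2.18 and 2.23 on arrays 1 to 6. In ascorbate it was 10.8, 27.0, 5.23, 5.35, 9.26 and 8.56. The water arrays lay close together, and the lowest ascorbate ratio, at number 3, was above the highest water ratio. Both genes were chosen on this contrast, moved in opposite directions and did not overlap between the groups. The ratios therefore could not overlap either, and this is not a separate result.

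On the log2 scale the ratio of deposited intensities averaged 1.25 ± 0.11 in water and 3.22 ± 0.87 in ascorbate (SD, n = 6 each). The difference was 1.97 ± 0.36 (SE), or 3.90-fold. It combines the deposited differences of 0.65 for CHLP and -1.32 for CHLM. After quantile normalization those were smaller in size, 0.60 and -0.90. By number the difference in the deposited ratio was 2.11, 3.49, 0.96, 1.2, 2.09 and 1.94. Number 3 gave the smallest shift, 1.95-fold, and number 2 the largest, 11.3-fold. Without numbers 1 and 2 it was 1.55.

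**Figure D3:**
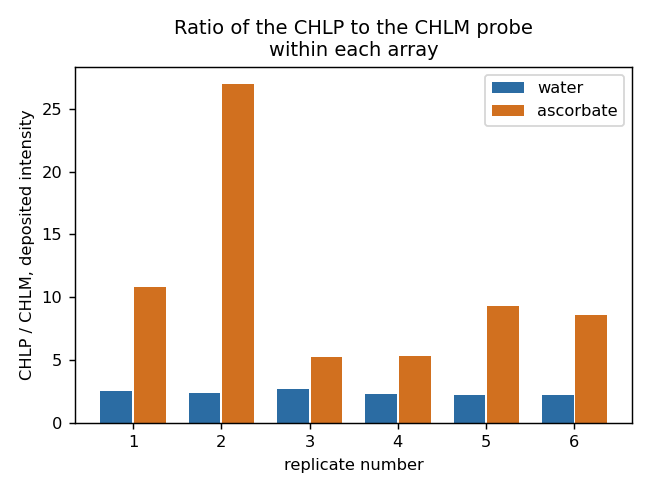
Ratio of the deposited CHLP intensity to the deposited CHLM intensity within each array (vertical axis, no unit, from 0) for replicate numbers 1 to 6, with water and ascorbate bars side by side, 1 array each. Water bars lie between 2.18 and 2.69 and ascorbate bars between 5.23 and 27.0.

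Consecutive numbers, 1 with 2, 3 with 4 and 5 with 6, resembled each other to different degrees. Their deviations from the group mean correlated across probes at 0.24 in water and 0.09 in ascorbate for numbers 1 and 2, at 0.19 and 0.30 for 3 and 4, and at 0.73 and 0.74 for 5 and 6. By another measure, the consensus correlation that limma estimated within pairs and treatments over all tested probes was 0.697. Whether the change or the level of either gene differed between these 3 pairs was tested across all 3266 probes, since neither question uses the mean difference that chose the genes. The choice of genes with a clear mean difference can still favour those with a small spread. The error of the test of change is the scatter of the 2 arrays within a pair and treatment. That of the level test also takes in differences of the change between pairs. If the 2 arrays are repeat readings of 1 RNA, the p-values rest on technical scatter, wholly for the change and partly for the level. By pair, CHLP differed between ascorbate and water by 0.45, 0.75 and 0.61, and CHLM by -1.27, -0.21 and -1.21, on the normalized log2 scale.

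The differences for CHLP spanned 0.31 log2 units between pairs, which did not pass (limma F test, adjusted p 0.48), and those for CHLM spanned 1.05 units (adjusted p 0.18). Of all probes, 31.2% passed this test. For CHLM the test passed on intensities as deposited, where the 3 pairs stood at -2.39, -0.27 and -1.29 (limma adjusted p 0.032). It also passed without ascorbate array 1 (span 1.53) or ascorbate array 2 (span 0.98). Each of these fits leaves 1 array in that pair and treatment. The 1.05 log2 units between ascorbate arrays 1 and 2 then no longer count as error. These passes are therefore no firmer evidence that the difference depended on the pair. Over its 19 alternatives the adjusted p ran from 0.011 to 0.39. For CHLP it ran from 0.19 to 0.74.

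Levels averaged over both treatments spanned 0.11 log2 units between pairs for CHLP and 0.32 for CHLM, and neither passed. CHLP stood at 0.77, 0.67 and 0.74 log2 intensity in pairs 1 and 2, 3 and 4, and 5 and 6 (limma F test, adjusted p 0.67). CHLM stood at -1.53, -1.24 and -1.57 (adjusted p 0.56). Of all probes, 24.4% passed. Within pairs, the ascorbate arrays 1 and 2 differed by 1.05 log2 units for CHLM, the water arrays 3 and 4 by 0.01, and the ascorbate arrays 1 and 2 by 0.01 for CHLP. The 2 arrays of a pair thus lay close together for some values and not for others.

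The error of both differences depended on how consecutive numbers were treated. With the pairs as a fixed block the SE stayed at 0.09 for CHLP and 0.23 for CHLM. With the pairs as a random block it was 0.16 and 0.38, wider than the 0.09 and 0.23 of the 6 against 6 fit. With consecutive numbers averaged, 3 against 3, it was 0.12 and 0.26. Ascorbate and water samples of the same number also deviated together, and with the replicate number as a block the SE was 0.09 and 0.24.

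The other genes of the chlorophyll pathway and its neighbours were little covered. In 9 lists of tetrapyrrole and chlorophyll synthesis, the heme branch, chlorophyll breakdown, tocopherol, plastid isoprenoid precursors, carotenoids, chlorophyll-binding proteins, regulators and S-adenosylmethionine supply, 136 loci besides CHLP and CHLM were named, and 5 had a single-gene probe. AT5G63290, a relative of coproporphyrinogen oxidases, was listed at 0 on all arrays. Of the 4 tested genes, 0 passed between ascorbate and water in limma, and 1 had an unadjusted p under 0.05, beside 17.1% of all probes passing and 1006 of 3266 with an unadjusted p under 0.05. With 4 genes, a count of 0 does not set the list apart from that background. Their median difference was 0.01, beside 0.001 for all tested probes.

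On the ring side, HEMA3, a gene for glutamyl-tRNA reductase, the first committed step toward all tetrapyrroles, read 0.900 to 1.56 in water and 1.03 to 1.87 in ascorbate as deposited. Its groups overlapped, although ascorbate arrays 5 and 6 lay above all water values and water array 3 below all ascorbate values. The normalized difference was 0.07 ± 0.15 (SE, limma adjusted p 0.79). On the tail side, VTE6, which phosphorylates phytyl phosphate for use in tocopherol, read 0.662 to 1.14 and 0.682 to 1.24. The difference was 0.08 ± 0.18 (SE, limma adjusted p 0.81), but its level differed between pairs of numbers (adjusted p 0.00017).

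Z-ISO, the isomerase of zeta-carotene in carotenoid synthesis, which draws on the same geranylgeranyl diphosphate as CHLP, read 0.796, 0.909, 1.07, 1.12, 1.45 and 1.38 in water at numbers 1 to 6. In ascorbate the values were 0.375, 0.257, 0.906, 1.01, 0.775 and 0.725. Every number was lower in ascorbate, although ascorbate arrays 3 and 4 lay within the water range. The normalized difference was -0.67 ± 0.27 (SE, limma adjusted p 0.12), and with the replicate number as a block it passed (adjusted p 0.032). It did not pass with pairs of consecutive numbers as a random block (adjusted p 0.28), or with those numbers averaged, alone (0.47) or with a block (0.26). By pair it was -0.72, -0.22 and -1.07, smallest in numbers 3 and 4 as for CHLM.

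LHCB1.5, a light-harvesting protein of photosystem II that binds chlorophyll, read 2.74, 2.97, 2.16, 2.19, 1.61 and 1.37 in water at numbers 1 to 6. Its ascorbate values were 1.53, 1.70, 2.55, 2.60, 2.29 and 2.07. It was lower in ascorbate at numbers 1 and 2 and higher at the other 4. The mean difference was -0.05 ± 0.20 (SE, limma adjusted p 0.90), and the pairs, at -0.74, 0.20 and 0.38, differed (limma F test, adjusted p 0.0058). LHCB1 genes are near-identical copies, so which of them this probe read is uncertain.

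**Figure D4:**
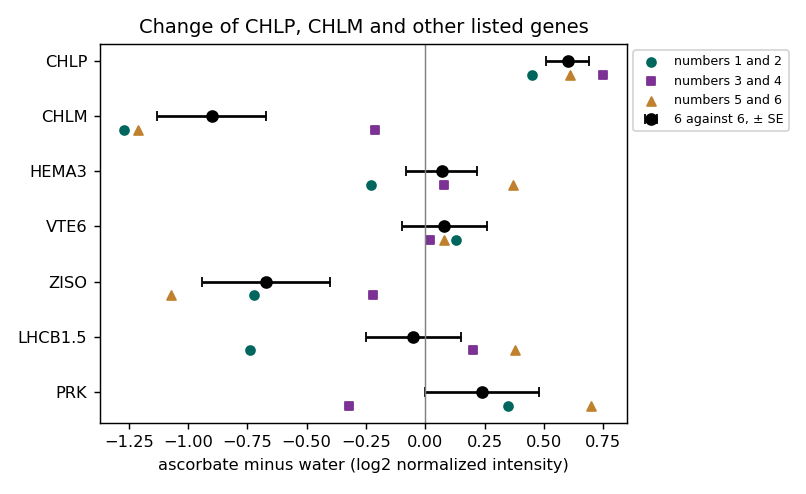
Ascorbate minus water on the normalized log2 scale (horizontal axis) for CHLP, CHLM, 4 other pigment genes and the marker PRK. Black points with bars are the 6 against 6 difference ± SE, and coloured points the difference in each pair of consecutive numbers, 2 arrays a group. CHLP lies at 0.60, CHLM at -0.90 and ZISO (Z-ISO) at -0.67, while LHCB1.5 has pairs on both sides of 0.

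The genes with the most similar pattern were looked for among 548 other single-gene probes above 0 on all arrays, by Pearson r of normalized log2 intensity. These correlations are descriptions over 12 arrays that share their numbers and treatments. Over all 12 arrays the 5 most like CHLP were AT3G26580 (r 0.95), AT3G44020 (0.92), AT1G67820, AT2G15440 and ATSPS4F, a sucrose phosphate synthase gene (0.91 each). All 5 were higher in ascorbate on average, by 0.73 to 1.13 log2 units. CHLP was chosen for its difference between the groups, so a high r with it nearly fixes that direction. AT3G26580 was closest in size as well, at 0.59 ± 0.21 in water and 1.32 ± 0.11 in ascorbate (SD, n = 6 each).

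The 5 most like CHLM over the 12 arrays were AT1G03810 (r 0.96), AT5G06790 (0.94), AT5G02710 (0.93), and iqd32, an IQ-domain gene of the calmodulin-binding family, and AT1G80450 (0.92 each). All 5 were lower in ascorbate on average, with differences of -1.36 to -0.40 log2 units, a direction that the high r with CHLM again nearly fixes. AT1G03810 read 1.35, 1.17, 1.02, 1.05, 1.27 and 1.15 on water arrays as deposited and 0.566, 0.359, 0.856, 0.834, 0.715 and 0.687 on ascorbate arrays. Like CHLM, it was lowest on ascorbate array 2 and highest, within ascorbate, on array 3.

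With the group means taken out, the genes nearest to CHLM had a higher r than those nearest to CHLP. AT1G03810 (r 0.90), AT5G02710 (0.90), AT5G06790 (0.86), iqd32 (0.82) and AT2G39100 (0.82) followed CHLM within groups, and 4 of these 5 were also among its nearest genes over all 12 arrays. The r over 12 arrays holds the same deviations, so this overlap is not a separate result. CHLM deviated from its ascorbate mean by -0.79 on array 2, 0.67 on array 3, 0.41 on array 4 and -0.48 on array 5. All 5 genes were below their ascorbate mean on array 2 and above it on arrays 3 and 4. Such a shared course follows largely from choosing them by these deviations.

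For CHLP the nearest genes within groups were AT1G04330, AT2G28540 and AT3G28460 (r 0.73 each), AT4G13680 (0.68) and AT5G19370 (0.65), of which 0 were among its nearest genes over all 12 arrays. CHLP deviated by at most 0.24 log2 units from its group mean. Its lowest array was number 4 in both groups, at -0.24 in water and -0.12 in ascorbate. AT4G13680 was far lower there, at -2.96 and -2.83, as were AT5G19370, at -2.07 and -1.64, and AT3G28460, at -2 and -1.14. AT1G04330 deviated by -0.65 and -0.56, and AT2G28540 by -0.14 and -0.02. The r of these genes with CHLP without number 4 was not computed. CHLP and CHLM themselves had an r of 0.35 within groups.

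**Figure D5:**
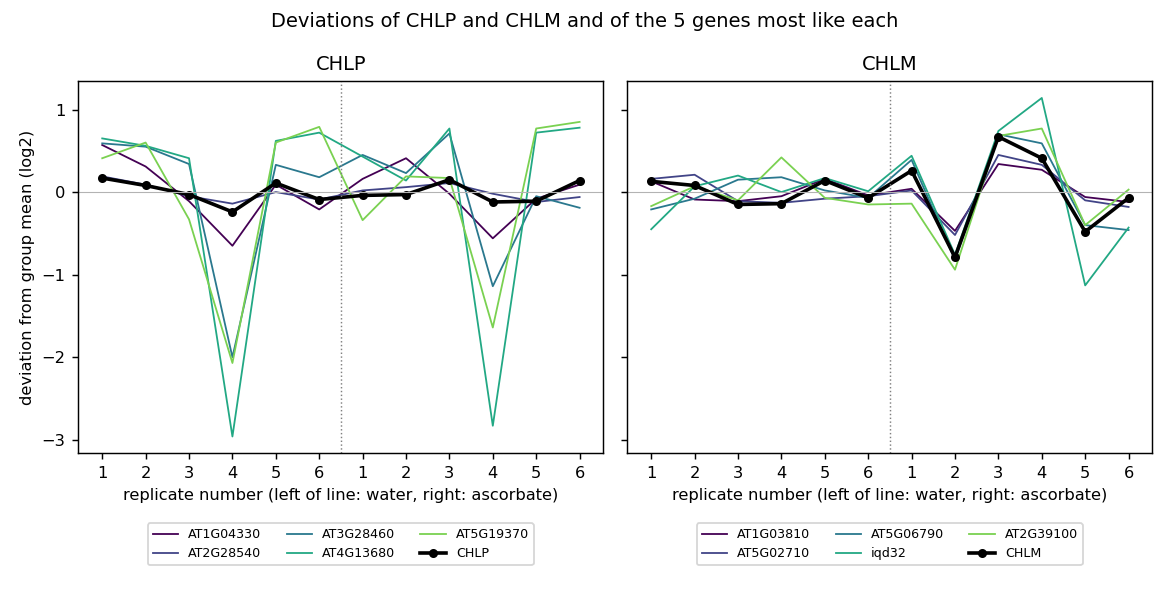
Deviation of normalized log2 intensity from the group mean (vertical axis) on each array, water numbers 1 to 6 left of the dotted line and ascorbate numbers 1 to 6 right of it. Black is CHLP (left panel) or CHLM (right panel) and colours are the 5 genes chosen for the highest r of these deviations with each. CHLM and its 5 genes dip at ascorbate 2 and lie above 0 at ascorbate 3 and 4, and CHLP is lowest at number 4 in both groups.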

How the data were processed

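The authors deposited 1 linear intensity for each probe on each array. The sources used here give neither scanner nor background correction nor scaling, and 11.5% to 14.2% of probes per array were at 0. Values under the 1st percentile of an array's positive values were raised to it, log2 was taken, and arrays were quantile normalized. Without 173 probes that read 0 on every array, 3266 were tested. Ascorbate was compared with water by limma 3.58.1 (lmFit, then eBayes; R 4.3.3), two-sided, with Benjamini-Hochberg adjustment over all tested probes and a threshold of 0.05, and pair terms were tested by its F test. The number of arrays limits precision.

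The platform annotation gave 692 probes 1 gene, 870 several and 1877 none. The RefSeq table of TAIR10.1 held a locus for 690 of the 692 and was used for names only, so no coordinates or sequences are given. The genes and lists were chosen with earlier results of these data known. Genes named are CHLP, CHLM, the measured members of the lists and the 5 single-gene probes most like each of the 2 genes, over all arrays and within groups. The largest number of equal nonzero values between any 2 arrays was 2, so no arrays were merged. Deviations of same-numbered water and ascorbate samples correlated at 0.35, 0.36, 0.56, 0.56, 0.53 and 0.53 for numbers 1 to 6, over the limit of 0.1, so the label numbers pair the samples. The main 6 against 6 fit did not use this pairing, and the fit with the replicate number as a block is given as an alternative. Alternatives were other scalings, floors and filters, blocks, averaging of consecutive numbers, and leaving out samples.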

Additional observations from a re-analysis of the deposited data

Results flagged for a closer look

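Of 44 groups of 6 values of the named genes, 4 had an array set widely apart from its 5 companions. CHLP and CHLM were not among these groups. About 2.2 would arise by chance among independent groups not chosen from these data. AT4G13680 and AT3G28460 were chosen for deviations that follow those of CHLP, which was lowest on array 4 in both groups. The chance number is therefore no baseline for them. AT4G13680 stood at -2.78 log2 intensity on water array 4, against 0.59 to 0.90 on the others, and at -3.34 on ascorbate array 4, against -0.38 to 0.26. AT3G28460 stood at -4.22 on water array 4, against -2.05 to -1.64. iqd32 stood at -2.13 on water array 1, against -1.68 to -1.48.

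The difference between ascorbate and water depended on the pair of consecutive numbers for LHCB1.5 (limma F test, adjusted p 0.0058) and Z-ISO (ZISO, adjusted p 0.048), beside 31.2% of all probes. LHCB1.5 passed in all 19 alternatives of that test, with adjusted p of 0.0011 to 0.024. Z-ISO ranged from 0.011 to 0.19 over its 19 alternatives. It did not pass after median centring (adjusted p 0.19), centring on the 75th percentile (0.075) or cyclic loess (0.082). Nor did it pass when any 1 of the 6 water samples or of ascorbate samples 3 to 6 was left out (adjusted p 0.063 to 0.13).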

How the results depend on the processing

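Over 33 alternatives CHLP stayed higher in ascorbate, by 0.52 to 1.04 log2 units, and CHLM lower, by -1.32 to -0.52. Blocks and averaging of consecutive numbers cannot move these differences, since each number holds 1 array of each group. Leaving samples out could hardly reverse them, since the genes were chosen on this contrast and their groups did not overlap. The constant sign is thus a description only. Moves over 1 SD between replicates were 1.04 (median centring) and 0.84 (75th percentile) for CHLP and -1.32 (as deposited) for CHLM. The log2 difference in the ratio of deposited intensities ranged from 1.55 to 2.41 over its 23 alternatives. These were samples left out, a block and averaging, of which the last 2 cannot move it, and no other scaling. The number of probes called in limma, 559, was 983 with pairs of consecutive numbers as a fixed block, 148 as a random block, 1 with consecutive numbers averaged (501 at an unadjusted p under 0.05) and 0 with a block added (625). It was 796 with the replicate block, 261 without numbers 5 and 6, and 314 to 584 when 1 sample or 1 number was left out, lowest without number 5 (314) and number 6 (329). Higher probes made up 56.9% of calls, 21.7% as deposited, 72.7% after median centring and 45.9% on the 75th percentile.

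The span of CHLM differences between pairs passed as deposited (2.11) and ranged from 0.92 to 1.53 with 1 sample left out. CHLP levels differed between pairs after median centring (0.45, adjusted p 0.046). Of the 4 other listed genes 1, Z-ISO, passed with the replicate block (adjusted p 0.032) and with pairs as a fixed block (adjusted p 0.0074), but not with pairs as a random block (0.28) or with consecutive numbers averaged, without (0.47) or with a block (0.26). The replicate block changed no other call among these 4. Uncalled differences changed sign for VTE6 as deposited (-0.02), and with samples left out it ran from -0.01 to 0.17. LHCB1.5 did so after median centring (0.38), on the 75th percentile (0.18), without numbers 1 and 2 (0.27) and over -0.18 to 0.08 with samples left out. HEMA3 did so without numbers 5 and 6 (-0.08) and over -0.02 to 0.13. HEMA3 differences between pairs passed as deposited (0.90, adjusted p 0.028) and those of VTE6 after median centring (0.62, adjusted p 0.013). The causes were not tested.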
